A study of Mus musculus with 7 samples.

Results

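Astrocytes are the glial cells of the striatum that take up transmitter around synapses, and the nuclei described here are the 300 that the authors annotated as astrocytes among 4524 striatal nuclei, or 6.63%. They came from 7 male C57BL6/J mice, 3 wild type (WT) and 4 carrying HttQ175 in 1 copy (HttQ175/+). In HttQ175 the endogenous huntingtin gene has been given a long CAG repeat, the kind of mutation that causes Huntington's disease. HttQ175/+ replicate 1 was 15 months old, and the other 6 mice were 14. A knock-in allele is present in every cell, so a difference in astrocytes cannot be told apart from a response of astrocytes to other cells that carry it. The RNA is nuclear and was read at the 3' end with droplet libraries. By mouse there were 46, 26 and 30 astrocyte nuclei in WT replicates 1 to 3, or 102 in all, and 57, 71, 28 and 42 in HttQ175/+ replicates 1 to 4, or 198. Their summed unique molecular identifiers (UMIs, which count captured RNA molecules) ranged from 40870 to 153668 per mouse. Each nucleus held between 1133 and 5108 UMIs. 3 barcodes occurred in 2 libraries each, and 1 of those 6 nuclei was an astrocyte.

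Astrocytes clear glutamate and GABA from the synaptic cleft through membrane transporters and return glutamine to neurons. They buffer potassium with pumps and Kir channels, share ions and metabolites through connexin gap junctions, supply lactate, and export cholesterol on lipoproteins that carry ApoE and clusterin. In injury and disease they can enter reactive states marked by the intermediate filament gene Gfap, which striatal astrocytes normally express at a low level. The comparison of genotypes asks which genes of these cells differ in level in mice with the Huntington's disease allele.

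The 5 markers of the cell type were present in the astrocyte nuclei of every mouse and lower in oligodendrocytes and neurons. Levels are given as CPM, UMIs scaled to 1e+06 per nucleus and averaged over the nuclei of a mouse, and apply to 1 gene at a time, since 3' tags are not scaled to length. Slc1a2, the main glutamate transporter of astrocytes, stood between 5356 and 9653 CPM across the 7 mice, against 121 to 389 in oligodendrocytes and 20.2 to 109 in striatal projection neurons of the direct pathway (dSPNs). Among 6 other types its level was highest in endothelial nuclei, at 652 to 3734 CPM. Slc1a3, another glutamate transporter, ranged from 1108 to 1963 CPM in astrocytes and from 34.5 to 257 in oligodendrocytes. Ntsr2, a neurotensin receptor, ranged from 747 to 1765 CPM in astrocytes and from 15.5 to 68.0 in oligodendrocytes. The connexin gene Gja1 ranged from 278 to 882 CPM and the folate enzyme gene Aldh1l1 from 44.4 to 192, with 0 to 45.2 and 0 to 14.0 CPM in oligodendrocytes. Only 2 of the 300 nuclei had no UMI of any of the 5. Because the authors' annotation rests on these same nuclei, this is a check of the label and no test.

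Many annotated astrocytes also held neuronal RNA in amounts close to those of neurons, and their proportion varied among mice. The measure was the share of a nucleus's UMIs that came from 32 neuronal markers, 16 of striatal projection neurons and 16 of neurons in general. Of the 300 nuclei, 167 lay under 0.5%, 86 at 3% or more, and 32 between 1 and 3%. With a limit of 2%, chosen after these values were seen, 103 nuclei or 34.3% lay at or above it. In WT replicates 1 to 3 the share at or above 2% was 17.4, 7.69 and 23.3%, and in HttQ175/+ replicates 1 to 4 it was 28.1, 63.4, 17.9 and 47.6%. HttQ175/+ replicates 1, 2 and 4 stood above every WT mouse, HttQ175/+ replicate 3 lay within the WT range, and the exact binomial 95% interval of replicate 2, 51.1 to 74.5%, did not reach that of any WT mouse. The group means, 16.1% ± 7.90 (SD, n = 3) and 39.2% ± 20.3 (SD, n = 4), did not differ beyond the spread between mice (exact two-sided permutation test over 35 splits, p = 0.171, adjusted over 4 values tested 0.229). The smallest p that 3 against 4 mice can give is 0.0286. Thinning each nucleus to 1000 UMIs gave 19.6, 7.69 and 20% in WT and 29.8, 64.8, 17.9 and 47.6% in HttQ175/+. Of the oligodendrocytes, 310 of 468 or 66.2% lay at or above 2%, and of the dSPNs 1808 of 1809.

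**Figure D1:**
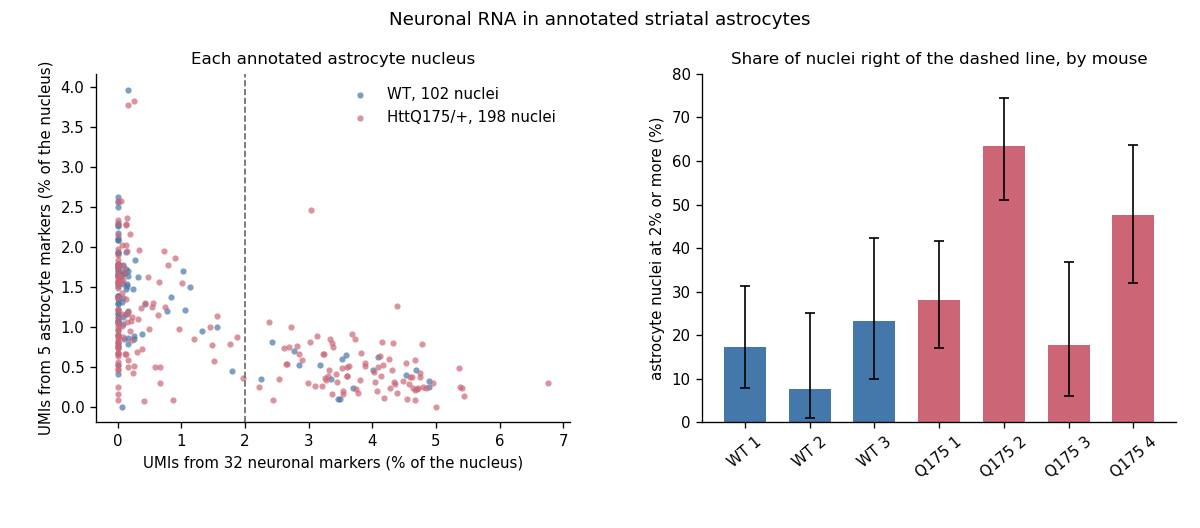
Left, each of the 300 annotated astrocyte nuclei by the percent of its UMIs from 32 neuronal markers (horizontal axis) and from the 5 astrocyte markers (vertical axis), with a dashed line at 2%. Right, the percent of astrocyte nuclei at or above 2% in each mouse with exact binomial 95% intervals, where HttQ175/+ (Q175) replicate 2 reached 63.4% and WT replicate 2 stood lowest at 7.69%.

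The nuclei at or above 2% carried both profiles. They held on average 135 to 153 neuronal marker UMIs per nucleus in the WT mice and 96.6 to 163 in the HttQ175/+ mice, against 139.8 to 152 and 102 to 160.1 in dSPNs of the same mice. Their 5 astrocyte markers summed to 15.9 to 19.1 UMIs per nucleus in WT and 10.2 to 14.2 in HttQ175/+, against 20.2 to 22.5 and 18.2 to 25.2 in the nuclei under 2%. Median UMIs were 3553 to 4740 in WT and 2350 to 3874 in HttQ175/+, whereas the nuclei under 2% had medians of 1314 to 1406 and 1320 to 1491. Pde10a, a phosphodiesterase of striatal projection neurons, stood at 3326, 1577 and 3540.0 CPM in the WT nuclei at or above 2% and at 1343, 1253, 905 and 1136 in those of the HttQ175/+ mice. In dSPNs it stood at 3934, 3969 and 4022 CPM in WT and 1681, 1676, 1668 and 1732 in HttQ175/+. The gene was thus lower in HttQ175/+ in both sets and the groups did not overlap in either. The nuclei at or above 2% numbered only 8, 2 and 7 in the WT mice, and 16, 45, 5 and 20 in the HttQ175/+ mice. In the nuclei under 2% Pde10a was 107, 131 and 68.9 CPM in WT and 118, 297, 62.2 and 103 in HttQ175/+, and the groups overlapped. Pde10a is 1 of the 32 markers behind the limit, so its levels on either side of it are fixed in part and are given as a description. Scrublet, which marks likely doublets, marked 3 of the 103 nuclei and 60 of all 4524. The origin of the neuronal RNA was not tested, and most differences below are given both for all nuclei and for the 197 under 2%, 85 in WT and 112 in HttQ175/+.

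Expressed over all astrocyte nuclei, the 32 neuronal markers summed to 8307, 3878 and 9303 CPM in WT and 13246, 25718, 8648 and 19916 in HttQ175/+. The difference of the mean log2 levels was 1.22, with an exact permutation p of 0.0857 (adjusted 0.229). HttQ175/+ replicates 1, 2 and 4 stood above all WT mice and replicate 3 did not. The 16 pan-neuronal markers summed to 5382, 2957 and 6819 CPM in WT and 11143, 22282, 7331 and 16865 in HttQ175/+, groups that did not overlap (log2 difference 1.47, exact permutation p = 0.0571). The 16 markers of striatal projection neurons summed to 2925, 921 and 2485 CPM and 2103, 3436, 1316 and 3051, groups that overlapped (0.30, exact permutation p = 0.6). Whether the lists differ from each other was not tested. In the nuclei at or above 2%, the projection neuron list summed to 7699 to 9665 CPM in WT and 4691 to 5466 in HttQ175/+. There the pan-neuronal list summed to 26663 to 30003 and 33072 to 38960 CPM. The 2 lists thus went opposite ways with genotype in those nuclei, so neither sum measures the amount of neuronal RNA alone. In the nuclei under 2%, where the limit bounds them, the sums of all 32 were 2408, 1059 and 1218 CPM and 3046, 3938, 895 and 2987, with a log2 difference of 0.71 (exact permutation p = 0.286). There 31 of the 32 markers still had a UMI, Drd2 being at 0. The 8 microglia markers summed to 29.2 to 93.1 CPM in WT and 193.8 to 538 in HttQ175/+, groups that did not overlap. The 10 oligodendrocyte markers summed to 633 to 1178 and 1096 to 2275 CPM, groups that did, and no marker of either list was at 0. In the nuclei under 2% the oligodendrocyte sums were 741 to 1230.0 and 1019 to 3748 CPM, and the microglia sums 31.6 to 113 and 139.0 to 655. The microglia sums of the WT mice rest on few UMIs, since 2 UMIs of the median mouse are worth 22.7 CPM, and they were not tested. The sums of the 8 endothelial and mural markers overlapped, at 281 to 470.2 CPM in WT and 268 to 337 in HttQ175/+, with Kcnj8 at 0. Those of 6 oligodendrocyte progenitor markers were 28.6 to 154 and 64.3 to 238 CPM, and the 11 neural progenitor markers, 2 of them at 0, gave 177 to 245 and 176 to 310.1. The 5 ependymal markers in the table summed to 0 to 168 CPM in WT and 38.1 to 168 in HttQ175/+. The part of these RNAs in the comparisons below was not tested.

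No gene passed the comparison of astrocytes between genotypes. Of 1873 genes with enough UMIs, 0 were higher and 0 lower in HttQ175/+ at an adjusted p under 0.05 (limma-trend on log2 CPM, Benjamini-Hochberg over all genes), which is 0% in each direction. At an unadjusted p under 0.05 there were 255 genes (13.6%), 148 higher (7.9%) and 107 lower (5.71%). A second fit, limma voom on the summed UMIs, passed 2 genes higher (0.107%), Meg3 and Snap25, and 4 lower (0.214%), Vegfa, Dclk1, Fzd2 and 1 with a provisional name. The limma-trend fit passed 6 genes higher without WT replicate 2, 3 without WT replicate 3 and 2 without HttQ175/+ replicate 3, with 0 lower each time, and 9 higher with a filter of 5 UMIs. Without regard to a test, all 4 HttQ175/+ mice stood above all 3 WT mice for 107 genes (5.71% of those tested) and below them for 114 (6.09%). Over the nuclei under 2%, 1871 of the genes kept by the filter on all nuclei could be fitted, and again 0 passed in either direction (0%). At an unadjusted p under 0.05, 103 were higher (5.51%) and 51 lower (2.73%). For the genes of the filter on all nuclei, the HttQ175/+ mice under 2% stood above all WT mice for 78 (4.16%) and below them for 94 (5.02%). Filtering anew on the nuclei under 2% left only 433 genes, of which 0 passed. The genes described next are the 10 with the smallest p, less 1 with a provisional name, and the most abundant members of lists of known function. None of them passed the main test, all log2 differences are HttQ175/+ minus WT with their standard errors, and all adjusted p-values are from limma.

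Of the leading genes, 4 had lower levels in HttQ175/+ and groups that did not overlap in all nuclei or in those under 2%. Under 2%, 5.02% of all genes tested stood below all WT mice in this way. Those nuclei are 197 of the same 300 and the genes were chosen for a small p, so this is no second observation. Vegfa, the angiogenic growth factor that astrocytes supply to vessels (chromosome 17, 46016993 to 46032369, GRCm38 as are all positions here), stood at 1778, 1226 and 1039 CPM in WT and 460.3, 483, 747 and 612 in HttQ175/+. That is 1348 ± 384 (SD, n = 3) against 576 ± 132 (SD, n = 4), a log2 difference of -1.17 ± 0.28 with an adjusted p of 0.114, the value shared by all 10 leading genes. Under 2%, Vegfa was 1899.7, 1272 and 1253 CPM against 568, 775, 849 and 623, a difference of -0.97 ± 0.26 (adjusted p = 0.203). After thinning to 1000 UMIs, 73.7 to 82.6% of the WT nuclei under 2% held a Vegfa UMI and 36.6 to 52.2% of the HttQ175/+ nuclei, where unthinned shares were 79.2 to 84.2% and 46.3 to 69.6%. In oligodendrocytes under 2%, given as background, thinned shares were 5.71 to 33.3% over the 7 mice. The fitted difference of Vegfa was close to 0, at 0.09 ± 0.30 in all oligodendrocytes and 0.07 ± 0.21 in dSPNs, but neither test of the difference from astrocytes passed (limma, adjusted p = 0.376 and 0.201). In projection neurons of the indirect pathway the Vegfa difference was -0.46 ± 0.25, at means of 129 CPM in WT and 102 in HttQ175/+ (limma, adjusted p = 0.414).

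Dclk1, a microtubule-binding kinase (chromosome 3, 55242364 to 55539068), stood at 3134, 3448 and 3753 CPM in WT and 1916, 1266, 2304 and 1632 in HttQ175/+, a log2 difference of -0.96 ± 0.23. Under 2% the levels were 3306, 3526 and 4172 against 2222, 1564, 2597 and 1822 CPM (-0.80 ± 0.22, adjusted p = 0.236). Dclk1 was also lower in dSPNs of the same mice, where its difference of -1.19 ± 0.17 passed the limma test over dSPN genes (adjusted p = 0.00122), as 2.54% of 8796 genes did in that direction. Fzd2, a Wnt receptor (chromosome 11, 102604396 to 102608058), had a mean of 439 CPM in the astrocyte nuclei under 2% and at most 25.4 in 6 other types. It stood at 475, 639 and 519 CPM in WT and 203, 221, 297 and 141 in HttQ175/+ (-1.27 ± 0.31), and at 546, 667 and 622 against 265, 411, 338 and 222 CPM under 2% (-0.87 ± 0.30, adjusted p = 0.385). Both genes had every HttQ175/+ mouse below every WT mouse in both sets of nuclei.

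Abcc5, an efflux transporter of cyclic nucleotides and glutamate conjugates (chromosome 16, 20331303 to 20426394), had the smallest p in the nuclei under 2%. Its level in all astrocyte nuclei was 323, 389 and 304 CPM in WT and 108, 156, 55.2 and 152 in HttQ175/+ (-1.41 ± 0.35). Under 2% it was 333, 393 and 305 CPM in WT, from 18, 13 and 9 UMIs, and 32.7, 54.3, 0 and 80.2 in HttQ175/+, from 4, 2, 0 and 4 UMIs. The log2 difference there was -2.11 ± 0.41 with an adjusted p of 0.0665. With a looser filter that tested 4921 genes in the same nuclei, chosen after the data were seen, Abcc5 was the 1 gene that passed (limma, adjusted p = 0.0136). Thinned shares of nuclei with an Abcc5 UMI were 15.8 to 20.8% in WT and 0 to 4.55% in HttQ175/+. In oligodendrocytes under 2% they were 6.25 to 13.3% and 8.57 to 19.0%, so the HttQ175/+ shares of astrocytes lay below those of oligodendrocytes. The fitted difference of Abcc5 was 0.01 ± 0.31 in all oligodendrocytes, -0.64 ± 0.21 in dSPNs and -0.52 ± 0.25 in projection neurons of the indirect pathway. Neither test of the difference from astrocytes passed (limma, adjusted p = 0.338 for oligodendrocytes and 0.471 for dSPNs). Ccdc174, chosen after its values were seen, was also lower in HttQ175/+, with 243, 225 and 232 CPM in WT and 79.3, 74, 58 and 109 in HttQ175/+ (-1.33 ± 0.34, adjusted p = 0.114, and -1.53 ± 0.39 under 2%). It reached the 113 CPM of the filter in no HttQ175/+ mouse, so it was tested only through the WT mice.

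The leading genes with higher levels in HttQ175/+ divided into neuronal genes and others. Meg3, a non-coding RNA of neuronal nuclei (chromosome 12, 109541001 to 109571726), stood at 2759, 1489 and 3793 CPM in WT and 6311, 12988, 4496 and 10448 in HttQ175/+ (1.66 ± 0.34). It was also higher in dSPNs (0.46 ± 0.09, limma, adjusted p = 0.00829). Snap25, a presynaptic fusion protein (chromosome 2, 136713453 to 136782428), stood at 74.2, 173 and 56.7 CPM against 259.8, 400.0, 254 and 352 (1.56 ± 0.35). Both, like Snhg11, belong to the 32 neuronal markers by which nuclei were kept under 2%, so their levels in that set are fixed in part by the limit and are given as a description. With the neuronal level as covariate the difference of Meg3 was 0.36. That covariate is the summed level of the 32 markers, Meg3 among them, so this value is also fixed in part. In the nuclei under 2% Meg3 was 353, 221 and 224 CPM in WT and 843, 1001, 150.0 and 893 in HttQ175/+. Snap25 was 0, 128 and 0 CPM against 178, 127, 92.2 and 94.7. Snhg11, another neuronal non-coding RNA, was 1673, 733 and 1799 CPM in WT and 3049, 6456, 1799 and 4379 in HttQ175/+. Among the nuclei under 2% it had no UMI in any WT mouse and stood at 236, 657, 0 and 385 CPM in HttQ175/+.

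Hspa8, Kif1a and mt-Nd5 also had groups that did not overlap in the nuclei under 2%, beside 4.16% of all genes tested that stood above all WT mice there. They too were chosen for a small p over nuclei that include these. In all nuclei mt-Nd5 reached the 113 CPM of the filter in no WT mouse, so it was tested only through the HttQ175/+ mice. Hspa8, the constitutive cytosolic chaperone Hsc70 (chromosome 9, 40800984 to 40810087), stood at 161, 77.7 and 124 CPM in WT and 578, 375, 257 and 379 in HttQ175/+ (1.55 ± 0.35). Under 2% the levels were 173, 84.1 and 134 and 634, 538, 283 and 326 CPM, from 12, 4 and 4 and 48, 20, 9 and 16 UMIs (1.44 ± 0.36, adjusted p = 0.167). In oligodendrocytes Hspa8 had the opposite sign, -0.79 ± 0.29 with an adjusted p of 0.201 (limma), and the test of the difference between the types did not pass (adjusted p = 0.134). Kif1a, a kinesin of vesicle transport (chromosome 1, 93015464 to 93101951), stood at 50.9, 0 and 259 CPM in the WT nuclei under 2% and 291, 426, 352 and 392 in HttQ175/+, from 4, 0 and 8 and 22, 16, 13 and 15 UMIs. Over all astrocyte nuclei its difference was 2.13 ± 0.52. Its means in WT and HttQ175/+ were 149 and 256 CPM in dSPNs, and 262 and 259 CPM in oligodendrocytes. The mitochondrially encoded subunit mt-Nd5 of respiratory complex I stood at 64.7, 62.6 and 0 CPM in WT astrocyte nuclei under 2% and 376, 363, 151 and 251 in HttQ175/+. These levels rest on 4, 2 and 0 and on 27, 14, 7 and 9 UMIs. The mt-Nd5 difference over all nuclei was 2.05 ± 0.51. RNA of the mitochondrial genome is outside the nucleus, and the median share of mitochondrial UMIs per astrocyte nucleus was 0.239, 0.0468 and 0.201% in WT and 0.432, 0.782, 0.071 and 0.218% in HttQ175/+. The part of that share in the mt-Nd5 values was not tested.

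**Figure D2:**
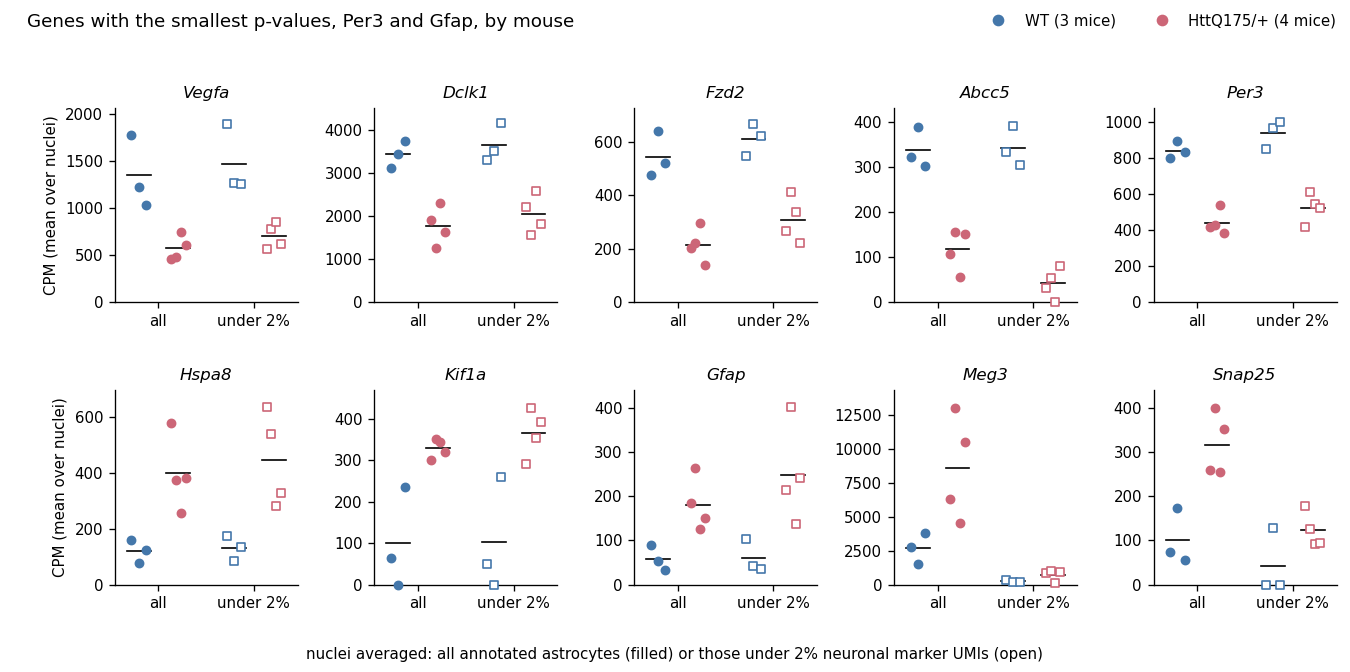
Level of 10 genes in astrocytes of each mouse in CPM (vertical axes from 0), averaged over all annotated nuclei (filled circles) or over those under 2% neuronal marker UMIs (open squares), with bars at the group means. Vegfa, Dclk1, Fzd2, Abcc5 and Per3 had every HttQ175/+ mouse below every WT mouse in both sets. Meg3 and Snap25 are among the markers that define the nuclei under 2%, so their levels there are set in part by that limit.

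No transporter or enzyme that clears transmitter passed the test, and their median difference was nearer 0 in the nuclei under 2%. Of 12 genes of glutamate and GABA uptake and breakdown, 9 could be tested and 0 passed in either direction. That median, on the log2 scale, was -0.37 in all nuclei and -0.09 under 2%, beside 0.04 in both for all genes tested. Slc1a2 was 8123, 9653 and 8839.5 CPM in WT and 6284, 5356, 8903 and 6369.8 in HttQ175/+ (-0.41 ± 0.19, adjusted p = 0.361), with 3 of 4 HttQ175/+ mice below the WT mice. Under 2% it was 9181, 10205 and 10920.2 against 7771, 7959.5, 10536 and 9947 CPM (-0.13 ± 0.19, adjusted p = 0.903), and the groups overlapped. Slc1a3 was 1512, 1963 and 1932 CPM against 1166, 1119.8, 1521 and 1108 in all nuclei (-0.53 ± 0.24), and -0.24 ± 0.23 under 2%. Glul, glutamine synthetase, ranged from 695 to 886 CPM in WT and from 430 to 999 in HttQ175/+ (-0.29 ± 0.30, and -0.09 ± 0.29 under 2%).

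No gene of ion balance, coupling or adhesion passed either. Of 17 genes of potassium, water and ion balance 13 were tested and their median was -0.30 in all nuclei and 0.03 under 2%. Slc4a4, a sodium bicarbonate cotransporter, was 856, 698 and 676 CPM in WT and 714, 629, 743 and 689 in HttQ175/+ (-0.08 ± 0.26, adjusted p = 0.927), and 970.4, 681 and 717 against 843, 920.3, 833 and 883 CPM under 2% (0.18 ± 0.26). The groups overlapped in both sets. The water channel gene Aqp4 ranged from 405 to 650.2 CPM in WT and from 356 to 605 in HttQ175/+. Of 23 gap junction and adhesion genes 15 were tested, with a median of -0.23 in all nuclei and -0.14 under 2%. Gja1 was 629, 722 and 576 CPM in WT and 278, 366, 882 and 514 in HttQ175/+ (-0.43 ± 0.32, and -0.18 ± 0.31 under 2%), where HttQ175/+ replicate 1 was lowest and replicate 3 highest of all 7 mice. The adhesion gene Lsamp was 654, 919 and 784 CPM against 569, 470.3, 494 and 403 (-0.66 ± 0.27, and -0.37 ± 0.26 under 2%), groups that did not overlap in all nuclei and did under 2%. Cadm1, chosen after its values were seen, was 601, 768 and 756 CPM against 419.8, 518, 335 and 492 under 2% (-0.59 ± 0.28, adjusted p = 0.577), and its groups did not overlap in either set.

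**Figure D3:**
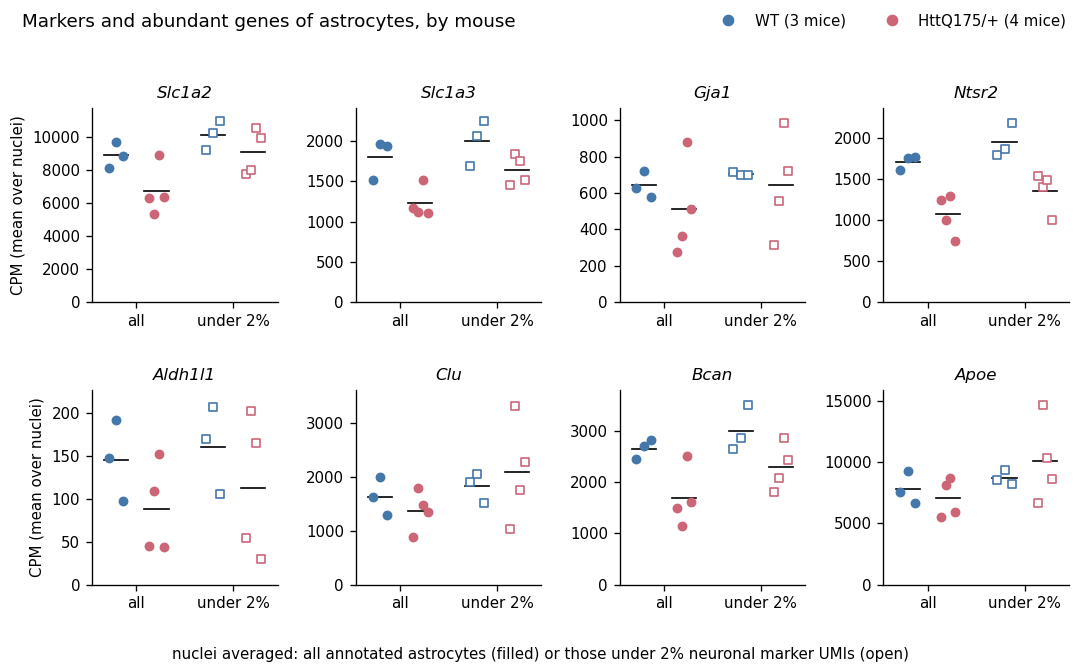
Level in CPM of the 5 markers and 3 further abundant genes in astrocytes of each mouse (vertical axes from 0), averaged over all annotated nuclei (filled circles) or those under 2% neuronal marker UMIs (open squares), with bars at the group means. For Slc1a2 the HttQ175/+ mice ranged from 5356 to 8903 CPM in all nuclei and the groups overlapped in both sets.

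Among secreted and synapse-regulating genes, 9 of 22 were tested and 0 passed, with a median of -0.41 in all nuclei and -0.11 under 2%. Bcan, the proteoglycan brevican, was 2446, 2699.5 and 2815 CPM in WT and 1489, 1146, 2511 and 1610.1 in HttQ175/+ (-0.69 ± 0.25, adjusted p = 0.252, and -0.35 ± 0.22 under 2%), with 3 of 4 HttQ175/+ mice below the WT range. Sparcl1, a promoter of synapse formation, ranged from 1195 to 2064 CPM in WT and from 870.4 to 1529 in HttQ175/+. Ptprz1, a receptor phosphatase, differed by -0.32 ± 0.28 (-0.13 ± 0.27 under 2%). Of 30 receptor and calcium signalling genes 16 were tested and 0 passed, with a median of -0.23 in all nuclei and -0.13 under 2%. Under 2%, Fgfr2 stood above all WT mice and Grm3, Gpr37l1, Ntsr2 and Fgfr3 below them, beside 4.16 and 5.02% of all genes tested. In all nuclei 2 of the list stood above and 3 below, beside 5.71 and 6.09% of all genes tested. Ntsr2 was 1606, 1749.9 and 1765 CPM in WT and 1242, 1004, 1295 and 747 in HttQ175/+ (-0.68 ± 0.25, adjusted p = 0.27), and 1784, 1861 and 2180.0 against 1538, 1399, 1488 and 996 under 2% (-0.48 ± 0.24), apart in both. Gpr37l1, an orphan receptor of astrocytes, was 1450.3, 1349.8 and 1358 CPM against 675, 1177, 1323 and 1039 under 2% (-0.38 ± 0.26), also apart, and differed by -0.68 ± 0.26 in all nuclei. Fgfr3, a fibroblast growth factor receptor, differed by -0.75 ± 0.27 (-0.44 ± 0.25 under 2%). The AMPA receptor subunit gene Gria2, which neurons share, was 2867, 3862 and 3499.7 CPM against 3419, 2776, 2847 and 2801 (-0.18 ± 0.21, and -0.36 ± 0.25 under 2%).

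Lipid and energy genes showed small median differences. Of 40 genes of cholesterol, lipoprotein and lipid handling 18 were tested and 0 passed, with a median of -0.29 in all nuclei and -0.07 under 2%. Apoe was 7518, 9259.5 and 6689 CPM in WT and 5481, 8155, 8663 and 5921 in HttQ175/+, overlapping (-0.15 ± 0.20, and 0.19 ± 0.24 under 2%), and Clu, clusterin, ranged from 1284 to 1985 and from 886 to 1782 CPM. Scd2, a fatty acid desaturase chosen after its values were seen, went the other way, with 634, 611 and 931 CPM in WT and 958, 1575, 1203 and 1876 in HttQ175/+ under 2% (0.92 ± 0.28, adjusted p = 0.273). It overlapped in all nuclei (0.61 ± 0.27). Its oligodendrocyte means were 3180 CPM in WT and 1430 in HttQ175/+, and the part of the oligodendrocyte RNA described above was not tested. Of 24 genes of glucose, glycogen and lactate metabolism 9 were tested and 0 passed, and the median was -0.04 in all nuclei and 0.22 under 2%. Aldoc, the aldolase of astrocytes, was 853, 729 and 699 CPM against 435, 454, 354 and 411 (-0.83 ± 0.27, adjusted p = 0.213), and 959, 789 and 851 against 529.8, 578, 430.4 and 677 under 2% (-0.57 ± 0.27), apart in both. Phkg1, a subunit of phosphorylase kinase, which starts glycogen breakdown, was 641, 1043 and 819 CPM against 391, 291, 465 and 662 (-0.87 ± 0.30, and -0.59 ± 0.29 under 2%).

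The transcription factor and Notch list had 22 of its 33 genes tested and 0 that passed, with a median of -0.32 in all nuclei and -0.18 under 2%. In all nuclei Nfia, a factor of glial fate, stood above all WT mice and Id2, Id3, Tcf7l2 and Pax6 below them, beside 5.71 and 6.09% of all genes tested. Under 2%, 1 of the list stood above and 3 below, beside 4.16 and 5.02% of all genes tested. Id3, an inhibitor of helix-loop-helix factors downstream of BMP signals, was 898, 1322 and 1052 CPM in WT and 607, 546, 742 and 574 in HttQ175/+ (-0.78 ± 0.26, adjusted p = 0.213), and 1012, 1389 and 1269 against 739.6, 873, 855 and 901 under 2% (-0.47 ± 0.24). Its relative Id2 was 593, 560.3 and 611 CPM against 371, 468, 293 and 352 under 2% (-0.58 ± 0.29), and Id4 differed by -0.78 ± 0.32 (-0.60 ± 0.32 under 2%). Id2 and Id3 were apart in both sets of nuclei, and Id4 overlapped in both. Id4 was also lower in dSPNs (-1.58 ± 0.26, limma, adjusted p = 0.00287). Hes5, a target of Notch, varied within genotypes, at 2018, 1133 and 616 CPM in WT and 349, 533, 1349 and 674 in HttQ175/+ (-0.77 ± 0.38, and -0.53 ± 0.35 under 2%). Tcf7l2, a Wnt effector chosen after its values were seen, was 171, 262 and 278 CPM against 91.4, 42.7, 95.4 and 141 (-1.21 ± 0.37, adjusted p = 0.163, and -0.90 ± 0.37 under 2%), and overlapped under 2%. Among 15 genes listed for striatal astrocytes 6 were tested and 0 passed, with a median of -0.17 in all nuclei and 0.02 under 2%. Crym, mu-crystallin, was 738, 1236 and 792 CPM in WT and 579, 378, 764 and 411 in HttQ175/+ (-0.77 ± 0.29, and -0.42 ± 0.26 under 2%).

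Reactive genes were mostly too low for the filter on UMIs: 3 of 33 could be tested, Gfap, C4b and S100b, and 0 passed. Gfap was 89.4, 52.3 and 33.7 CPM in WT and 184, 263, 126 and 151 in HttQ175/+ (1.35 ± 0.40, adjusted p = 0.155). Under 2% it was 103, 41.2 and 34.8 against 215, 401, 138 and 242 CPM, from 6, 2 and 1 and 18, 17, 4 and 9 UMIs (1.43 ± 0.41, adjusted p = 0.25). All HttQ175/+ mice stood above all WT mice in both sets, but no WT mouse reached the 113 CPM of the filter. Gfap was thus tested only through the HttQ175/+ mice, and the separation is given as a description. After thinning, however, the shares of nuclei with a Gfap UMI overlapped, at 0 to 13.2% in WT and 8.70 to 19.2% in HttQ175/+ (unthinned 4.17 to 15.8% and 8.70 to 42.3%), with 0 and 0 to 5.56% in oligodendrocytes. C4b, a complement component, was 344, 236 and 403 CPM in WT and 389, 527, 790.2 and 287 in HttQ175/+ (0.52 ± 0.34, and 0.78 ± 0.32 under 2%). The calcium-binding protein gene S100b was 169, 87.1 and 189 CPM against 354, 148, 20.3 and 195 (-0.05 ± 0.53, and 0.20 ± 0.50 under 2%). Of 22 metallothionein, antioxidant and iron genes 9 were tested and 0 passed, with a median of -0.47 in all nuclei and -0.19 under 2%. Under 2%, Mt2 and Slc7a11 stood below all WT mice, beside 5.02% of all genes tested. In all nuclei 3 of the list stood below, beside 6.09% of all genes tested. Slc7a11, the cystine-glutamate exchanger, was 551, 611 and 753 CPM against 213, 247, 516 and 346 (-0.96 ± 0.31, adjusted p = 0.213, and -0.64 ± 0.30 under 2%). Mt1 differed by -0.66 ± 0.28 (-0.29 ± 0.29 under 2%) and Mt3 by -0.47 ± 0.30 (-0.19 ± 0.31 under 2%). Mt1 was also lower in oligodendrocytes (-1.38 ± 0.32, limma, adjusted p = 0.042) and in dSPNs (-1.68 ± 0.32, limma, adjusted p = 0.00821). The ferritin heavy chain gene Fth1, abundant in oligodendrocytes, was 606, 294 and 590.3 CPM against 1504, 1225, 314 and 902 (0.84 ± 0.42, and 0.96 ± 0.45 under 2%).

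Of 23 heat shock and chaperone genes 7 were tested and 0 passed, and their median was 0.65 in all nuclei and 0.57 under 2%, with 6 of 7 values above 0 in all nuclei, beside 991 of 1873 genes tested. Besides Hspa8, the Hsp90 genes Hsp90aa1 and Hsp90ab1 differed by 1.19 ± 0.47 (0.77 ± 0.45 under 2%) and 0.36 ± 0.39 (0.20 ± 0.45 under 2%), and Hspa4l by 0.65 ± 0.38 (0.63 ± 0.40 under 2%), each with overlapping groups. The circadian and glucocorticoid list had 12 of 22 tested and 0 that passed, with a median of -0.27 in all nuclei and -0.15 under 2%. Per3, a clock repressor, was 799.6, 896 and 834 CPM in WT and 419, 429.8, 539 and 386 in HttQ175/+ (-0.89 ± 0.26, adjusted p = 0.155), and 849.8, 970.4 and 1000.3 against 417, 614, 549 and 523 under 2% (-0.75 ± 0.26, adjusted p = 0.385), apart in both. Tef, a clock output factor, differed by -0.75 ± 0.36 (-0.78 ± 0.39 under 2%). It was also lower in dSPNs (-1.46 ± 0.17, limma, adjusted p = 0.000334) and in projection neurons of the indirect pathway (-1.06 ± 0.21, limma, adjusted p = 0.0104). The time of day of collection is unknown here. Of 10 nuclear non-coding RNAs 5 were tested and 0 passed, with a median of 0.85 in all nuclei and 0.96 under 2%. Meg3 and Snhg11 are among those tested and among the markers behind the 2% limit, so the second median is set in part by that limit. Malat1, the most abundant RNA of these nuclei, was 182971, 168834 and 210554 CPM in WT and 146513, 140930.0, 138710.0 and 141544 in HttQ175/+ (-0.38 ± 0.12, adjusted p = 0.194, and -0.38 ± 0.19 under 2%), apart in both sets of nuclei. It was also lower in dSPNs (-0.45 ± 0.09, limma, adjusted p = 0.0116) and in projection neurons of the indirect pathway (-0.36 ± 0.05, limma, adjusted p = 0.00156). Kcnq1ot1, the imprinted antisense transcript, was 418, 551 and 413 CPM against 788, 1107, 603 and 920.5 (0.85 ± 0.29, and 0.38 ± 0.39 under 2%), and overlapped under 2%. It was also higher in dSPNs (0.60 ± 0.12, limma, adjusted p = 0.0103) and in projection neurons of the indirect pathway (0.71 ± 0.14, limma, adjusted p = 0.0104).

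Of huntingtin and 10 modifiers only Htt could be tested. It was 187, 134 and 109 CPM in WT and 259, 169, 151 and 141 in HttQ175/+ (0.29 ± 0.34, adjusted p = 0.73, and 0.02 ± 0.40 under 2%), and the 3' tags, far from the repeat, do not check which mice carry the allele. Of 16 genes that an earlier analysis of these mice found changed in projection neurons, 3 were tested and 0 passed. Onecut2, a transcription factor that is among them, was 52.9, 0 and 138 CPM in WT and 140.4, 389, 155 and 272 in HttQ175/+ (1.90 ± 0.52, adjusted p = 0.126). Under 2% it was 35.8, 0 and 0 against 38.8, 98.8, 0 and 43.9 CPM, from 2, 0 and 0 and 3, 5, 0 and 2 UMIs. That list was chosen on these same mice and is no independent evidence.

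**Figure D4:**
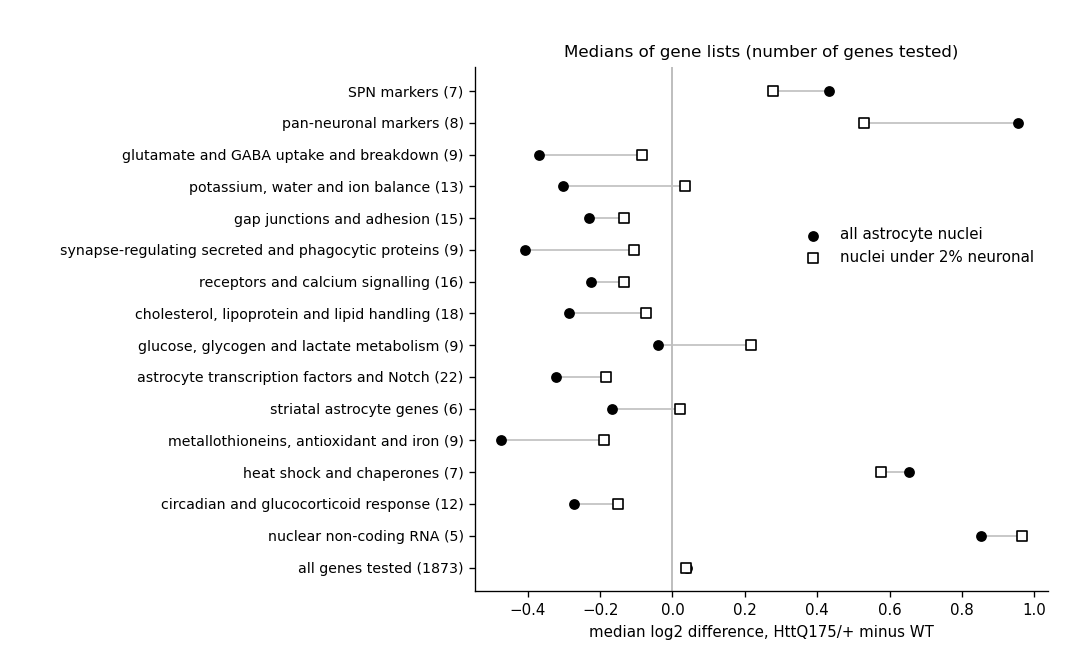
Median log2 difference between HttQ175/+ and WT (horizontal axis) of each list with 5 or more genes tested, in all annotated astrocyte nuclei (filled circles) and in those under 2% neuronal marker UMIs (open squares). The list of glutamate and GABA handling moved from -0.37 to -0.09 and the heat shock list from 0.65 to 0.57, while all genes tested stood at 0.04 in both. The projection neuron and pan-neuronal lists hold the markers that define the nuclei under 2%. Their medians there, and that of the nuclear non-coding RNAs, are set in part by that limit.

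Whether the genotype differences of astrocytes differ from those of other cells was tested within mice, over all annotated nuclei. Of these, 34.3% of the astrocytes and 66.2% of the oligodendrocytes lay at or above 2% neuronal marker UMIs. The part of that RNA in these tests was not tested. Of 1507 genes measured in astrocytes and oligodendrocytes, 0 differed at an adjusted p under 0.05 (0%; limma, 173 or 11.5% at an unadjusted p under 0.05). In the nuclei of both types under 2%, 0 of 1504 genes differed between astrocytes and oligodendrocytes (limma). Of 1659 genes measured in astrocytes and dSPNs, 0 differed (0%, with 245 or 14.8% unadjusted), and no fit under 2% was run for that pair. Leaving out 1 mouse changed the count for dSPNs: 14 genes passed without WT replicate 1, 7 without WT replicate 2 and 2 without HttQ175/+ replicate 4. With genes filtered anew the counts were 35 without WT replicate 1 and 6 without WT replicate 2, and 12 for oligodendrocytes without WT replicate 1.

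The proportion of astrocytes overlapped between genotypes. They made up 11, 7.69 and 5.38% of nuclei in WT and 6.93, 5.73, 6.25 and 5.99% in HttQ175/+, with means of 8.02% ± 2.83 (SD, n = 3) and 6.23% ± 0.517 (SD, n = 4) and an exact permutation p of 0.257. WT replicate 1 was highest, and without it the difference of -1.80 percentage points became -0.31. Astrocyte nuclei under 2% made up 9.09, 7.10 and 4.12% of all nuclei in WT and 4.99, 2.10, 5.13 and 3.14% in HttQ175/+. Those groups also overlapped, with a difference of -2.93 percentage points (exact permutation p = 0.143). Among glial and vascular nuclei alone the shares were 43.8, 32.1 and 28% in WT and 29.8, 27.6, 25 and 22.5% in HttQ175/+ (exact permutation p = 0.0857), and among nuclei other than projection neurons 32.9, 20 and 20.5% against 20.4, 18.8, 17.9 and 14.4% (exact permutation p = 0.0571). Median UMIs per astrocyte nucleus were 1463, 1339 and 1472 in WT and 1742, 2032, 1410.5 and 2383 in HttQ175/+ (exact permutation p = 0.171, adjusted 0.229). Under 2% these medians were 1406, 1330.5 and 1314 and 1491, 1484, 1320.0 and 1469, a difference of 91.0 against 467 in all nuclei. Captured nuclei are not a census of the tissue, so shares describe these libraries.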

How the data were processed

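Droplet 3' libraries (Chromium version 3) of striatal nuclei were processed by the authors with Cell Ranger 3.0.2 and Seurat on mm10, per the submitters' processing notes. Filters, clustering, doublet removal and strand use: not given in the sources used here. Deposited per-mouse tables hold the natural log of 1 plus UMIs per 10000, and the authors' deposited annotation gives each nucleus a cell type; their smoothed table was not used. The values were returned to a linear scale, and whole UMIs were recovered for 100% of the 5824756 values above 0 (tolerance 0.02). A mouse's level is the mean over its nuclei, in CPM. Each of the 7 libraries is 1 mouse and the mouse is the replicate.

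Genes needed 15 UMIs in all and 113 CPM in 3 mice. Sept4, Maged1, mt-Nd5, Gfap and Grik5 reached that level in no WT mouse, and Ccdc174 in no HttQ175/+ mouse. Such genes were tested only through the group where they are high, so the direction of their differences is fixed in part. limma 3.58.1 (trend, R 4.3.3) was fitted to log2(CPM + 22.7) after scaling by the trimmed mean of M values (TMM), and the fit was tested on simulated data. The pseudocount is worth 2 UMIs of the median mouse and makes differences of low genes smaller. Single values were compared by exact two-sided permutation over 35 splits of the mice. Scrublet in scanpy 1.11.5 marked doublets, which stayed in. Intervals cover counting error only.

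Named genes are the 10 with the smallest p, since fewer than 10 passed, the 5 markers, Htt, and up to 4 most abundant tested members of each list; provisional names are counted only, and genes outside this rule are said to be chosen after their values were seen, as were Id2, Id4, Nfia, Pax6, Grm3, Fgfr2 and Mt2. The members and lists were chosen with earlier results of these data known. The 2% limit was chosen after the data were seen. Fits without a mouse or without some nuclei were first run with genes filtered anew; after those counts were seen, they were also run on the genes of the full fit, and both are given. Of 5 list members absent from the tables no value is given. Gene positions are from GENCODE M21. Some genes that this rule names are not reported here.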

Additional observations from a re-analysis of the deposited data

Results flagged for a closer look

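In 7 of 174 groups of 4 HttQ175/+ mice, 1 mouse stood far from the other 3, where chance alone gives about 1 in 20. The 174 groups are the levels of the named genes in both sets of nuclei and 4 other values per mouse. The gap to the nearest mouse, as a share of the group's range, passed Dixon's 95% critical value for 4 samples. In all astrocyte nuclei, HttQ175/+ replicate 3 was high for Slc1a3 (1521 CPM), the adhesion gene Ntm (856 CPM) and Sparcl1 (1529 CPM). This is the HttQ175/+ mouse with the smallest share of nuclei at or above 2% neuronal marker UMIs, 17.9%, and the part of that share in these levels was not tested. HttQ175/+ replicate 1 was high for Gria2 at 3419 CPM, and replicate 2 for Gapdh at 439.9 CPM. In the nuclei under 2%, Gapdh was again high in replicate 2, at 453 CPM. There Mobp, a myelin gene, was high in replicate 1 at 427 CPM, from 31, 4, 5 and 5 UMIs in the 4 mice.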

How the results depend on the processing

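The count of 0 genes in both directions held under 23 of 33 alternatives of the limma fit. A filter of 5 UMIs in all passed 9 genes higher, voom on summed UMIs 2 higher and 4 lower, and weights per mouse 2 higher. Left-out mice gave 0 to 6 higher and 0 to 0 lower: 6 without WT replicate 2, 3 without WT replicate 3, and 2 without HttQ175/+ replicate 3 (1 with genes filtered anew). In the nuclei under 2%, a filter of 15 UMIs alone passed 1 gene lower. Differences from oligodendrocytes ranged from 0 to 12 genes and from dSPNs from 0 to 35 without 1 mouse (14 and 35 without WT replicate 1, 7 and 6 without WT replicate 2, 2 without HttQ175/+ replicate 4). Genes filtered anew left 433 genes under 2%, 373 under 1% and 651 without the most neuronal 25%, each with 0 passing. Over 58 genes and 33 alternatives, 1827 of 1844 log2 differences kept their sign, but sizes moved. Many of these genes were named for a small p or after their values were seen. The alternatives refit the same mice, so kept signs are no independent evidence. Meg3 ranged from 0.36 (neuronal level as covariate) to 5.14 (without the most neuronal 25%, genes anew), Kif1a from 0.89 (covariate) to 3.03 (without WT replicate 3), Snap25 from 0.94 to 2.41, Hspa8 from 1.04 to 2.10, mt-Nd5 from 1.47 to 2.64 and Abcc5 from -2.22 to -0.94. Those that reversed were, with the neuronal level as covariate, Fth1 (-0.36), Hsp90aa1 (-0.040), Hsp90ab1 (-0.25), Glul (0.0097) and Ptprz1 (0.35), with carried-over RNA subtracted, Kcnq1ot1 (-0.26) and Glul (0.0046), and under 2% with the filter of 15 UMIs, Htt (-0.022). Slc4a4, near 0 at -0.08, also reversed: with carried-over RNA subtracted (0.13), under 2% (0.18, 0.24 with genes filtered anew, 0.13 with the filter of 15 UMIs), under 1% (0.24, anew 0.31) and without the most neuronal 25% with genes anew (0.094). Left-out mice put it between -0.15 (without WT replicate 2, genes anew; -0.14 on the same genes) and 0.061 (without WT replicate 1, genes anew; 0.036 on the same genes). The cause was not tested. Without 1 mouse, the difference in the share of astrocytes ranged from -3.12 to -0.31 points, in median UMIs from 303 to 627.5, in neuronal marker level from 0.82 to 1.50 and in the share at or above 2% from 15.0 to 30.2 points, none with an exact permutation p under 0.05. No paired analysis was possible because replicate numbers follow accession order and pair no mice. With 197 nuclei under 2%, most genes have few UMIs per mouse, which limits what these data can detect.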

Other observations

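Genes that led in the nuclei under 2%, all chosen after their values were seen, included 4 not yet described. Sept4, a septin, stood at 0, 0 and 42.8 CPM in WT and 130.0, 294, 214 and 138 in HttQ175/+ there, from 0, 0 and 2 and 11, 13, 9 and 6 UMIs. In oligodendrocytes its means were 1364 and 1076 CPM, and the part of oligodendrocyte RNA in its astrocyte values was not tested. Maged1, an adaptor of apoptosis signalling, was 21.7, 0 and 0 CPM against 57.6, 187, 235 and 172, from 2, 0 and 0 and 7, 8, 10 and 6 UMIs. Phf3, a regulator of transcript elongation, was 124, 92 and 0 against 196, 381, 299 and 329, from 7, 3 and 0 and 11, 16, 12 and 12 UMIs. Gpi1, glucose-6-phosphate isomerase, was 125, 41.2 and 59 against 323, 353, 299 and 169, from 8, 2 and 2 and 21, 14, 10 and 6 UMIs. All 4 had every HttQ175/+ mouse above every WT mouse, beside 4.16% of all genes tested, and their adjusted p-values ranged from 0.135 to 0.187 (limma). Over all astrocyte nuclei, Sept4 and Maged1 reached the 113 CPM of the filter in no WT mouse. They were thus tested only through the HttQ175/+ mice. All 4 were chosen for a small p in these nuclei, so the separation of their groups is fixed in part and is a description. In all astrocyte nuclei the kainate receptor subunit gene Grik5 was 36.7, 66.6 and 85.7 CPM in WT and 179, 157, 288 and 168 in HttQ175/+ (1.38 ± 0.37, adjusted p = 0.124, and 1.11 ± 0.45 under 2%, where the groups overlapped). Thra, a thyroid hormone receptor, was 193, 63.6 and 61.8 CPM against 187, 260.4, 317 and 258 (1.25 ± 0.37, and 0.86 ± 0.51 under 2%). Hmgn3, a nucleosome-binding protein, was 487, 532 and 416 CPM against 254, 237, 180.1 and 203 (-1.04 ± 0.30, adjusted p = 0.135), and 556, 548 and 524 against 299.9, 236, 173 and 189 under 2% (-1.09 ± 0.31).

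As a description of these nuclei, the genes whose mean level under 2% most exceeded the highest of 6 other types were led by Grin2c, an NMDA receptor subunit, at 1254 CPM against 50.5. Rmst, a long non-coding RNA, followed at 543 against 15.2 CPM, and Phkg1 at 743 against 33.7. Ndrg2, a stress-responsive cytoplasmic protein of astrocytes, was 1408 against 85.2 CPM, and Fgfr3 1014 against 57.4. The marker Ntsr2 ranked ninth and Aqp4 eleventh.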
